A study of Caenorhabditis elegans with 12 samples.

Results

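Among 12 whole-body RNA libraries of Caenorhabditis elegans, 9 libraries of 3 genotypes were divided within each genotype into an earlier set of 5 and a later set of 4. The sets were chosen by measured transcript levels of these same libraries: the earlier set had more transcripts of molting genes, and the later set had more yolk protein and oocyte transcripts. The earlier set held wild type replicate 2, dis-3(L75Q) replicates 1 and 2 and eat-2(ad1116) replicates 2 and 3. The later set held wild type replicates 1 and 3, replicate 3 of dis-3(L75Q) and replicate 1 of eat-2(ad1116). The 3 libraries of the double mutant were left outside both sets. Because every gene measured in these libraries is part of what could have chosen the sets, all later-minus-earlier values below are descriptions, with no test and no p-value.

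The study sequenced RNA of hermaphrodites labelled as prefertile adults, fed on OP50, the Escherichia coli strain that is their standard laboratory food, at 20 °C. Wild type was strain N2, and the dis-3(L75Q) mutant was strain VC40130. Strain IJ173 carried eat-2(ad1116), and strain IJ2290, the double mutant, carried eat-2(ad1116) and dis-3(L75Q) together. dis-3 encodes the catalytic nuclease of the RNA exosome, and eat-2 encodes a nicotinic receptor subunit of pharyngeal muscle whose loss slows feeding. Each genotype was 1 strain with 3 libraries from independent harvests, so differences between genotypes are differences between strains. The label for developmental stage was the same in all 12 libraries.

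A nematode larva builds a new cuticle under the old one before each molt, and the epidermis then makes furrow collagens, precuticle proteins and molting enzymes in a fixed order. After the last molt the adult cuticle is completed, the intestine makes yolk proteins, and the germ line, which has by then stored sperm, turns to oocytes. Yolk proteins travel from the intestine to the oocytes and are taken up there by a receptor.

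Library totals lay between 31812386 and 32773817 counts, and 16253 genes passed the filter on low counts. Levels are given in CPM (counts scaled by effective library size), which compare a gene between libraries and not genes of different length. Each difference is later minus earlier on the log2 CPM scale, taken within each genotype and then averaged over the 3 genotypes, with the SD over the 3 genotype values. In each genotype 1 of the sets is a single library (replicate 2 of wild type, replicate 3 of dis-3(L75Q) and replicate 1 of eat-2(ad1116)), so each genotype's difference rests on that library. The RNA is of whole animals, in which fewer cells of a type and less RNA per cell cannot be told apart. dis-3 itself had 154 to 194 CPM in all 12 libraries. eat-2 had under 1 CPM in each library, and neither gene's transcript level checks a point mutation.

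The molting markers separated the sets within every genotype. fbn-1, which encodes a fibrillin-related protein of the apical matrix (chromosome III, 7625386 to 7641078 in WBcel235), had 7.39, 59.5 and 4.79 CPM in wild type replicates 1, 2 and 3. It had 307, 188 and 21.4 CPM in dis-3(L75Q) and 53.3, 470 and 425 CPM in eat-2(ad1116), in the same order of replicates. In each genotype the later libraries were the low ones, and the differences were close to each other, at -3.31, -3.49 and -3.07 (mean -3.29 ± 0.21, SD, n = 3 genotypes). mlt-11, which encodes a protease inhibitor needed for molting (chromosome V, 20667205 to 20678537), had 20.8, 179 and 9.08 CPM in wild type. In dis-3(L75Q) it had 494, 274 and 68.8 CPM, and in eat-2(ad1116) 81.2, 372 and 346 CPM. The mean difference of mlt-11 was -2.75 ± 0.83, largest in wild type at -3.7.

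The furrow collagen dpy-7 (chromosome X, 7536467 to 7537792) had 10.4, 110 and 6.54 CPM in wild type and 241, 224 and 25.6 CPM in dis-3(L75Q). The eat-2(ad1116) libraries had 72, 250 and 229 CPM. Its difference was -3.72 in wild type, -3.18 in the dis-3(L75Q) mutant and -1.73 in the eat-2(ad1116) mutant. The later eat-2(ad1116) library thus stood below the earlier ones of its genotype, yet far above the later wild-type libraries and nearer to the earlier wild-type library.

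The yolk protein markers had the opposite sign. vit-3 (chromosome X, 3567355 to 3572549) had 736, 271 and 732 CPM in wild type, 110, 102 and 413 CPM in dis-3(L75Q) and 58.9, 5.71 and 3.04 CPM in eat-2(ad1116). vit-5 (chromosome X, 3403471 to 3408603) had 938, 337 and 974 CPM in wild type, 141, 140 and 511 CPM in dis-3(L75Q) and 148, 11.2 and 10.1 CPM in eat-2(ad1116). Both were high in the later libraries of each genotype, by 2.4 ± 1.24 for vit-3 and 2.39 ± 1.23 for vit-5, with the largest difference in eat-2(ad1116). Across genotypes the sets overlapped: the later eat-2(ad1116) library had less of both transcripts than the earlier wild-type library.

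**Figure D1:**
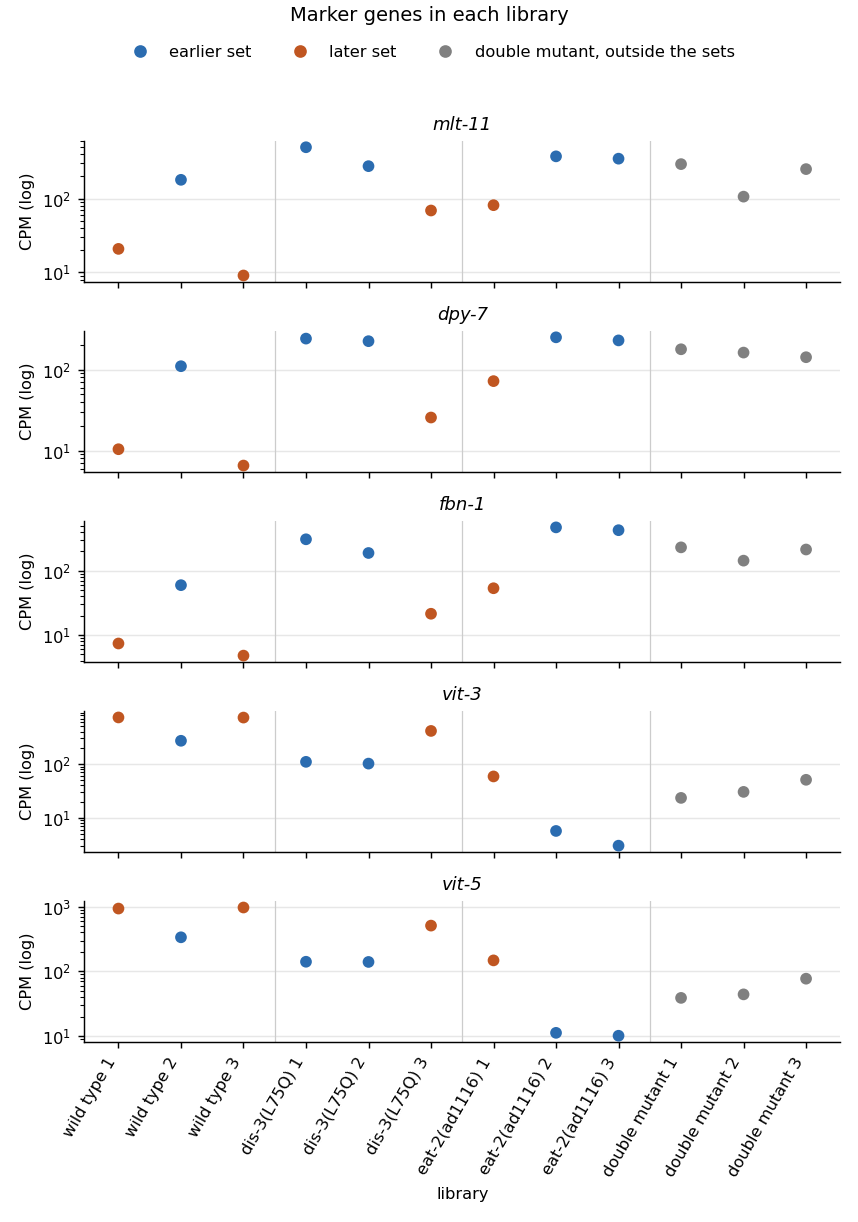
CPM on a log axis of the 5 marker genes in each of the 12 libraries; each point is 1 library, coloured by set. Within each genotype the later libraries are low for mlt-11, dpy-7 and fbn-1 and high for vit-3 and vit-5, and the double mutant libraries vary less among themselves than the others.

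A score of 45 molting and matrix genes minus 40 oocyte genes, both as mean log2 CPM, placed the libraries on 1 scale. It was 0.41, 1.62, 2.05, 2.06 and 2.08 in the earlier set, with wild type replicate 2 the lowest. In the later set it was -0.57, -0.92, -2.19 and -2.91, with dis-3(L75Q) replicate 3 the highest. The libraries nearest to each other across the sets were therefore wild type replicate 2 and dis-3(L75Q) replicate 3. The double mutant libraries had 1.2, 0.69 and 0.61, all inside the range of the earlier set. Replicate numbers were partly aligned with the sets: replicate 2 was earlier in all 3 genotypes, while replicates 1 and 3 were each later in 2 of them and earlier in the other.

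After each genotype's mean was removed, 59.4% of the remaining variance over the 9 libraries lay on the first principal component and 15.6% on the second. The first component had positive values in the 4 later libraries, 14.42 to 70.94, and negative values in the 5 earlier ones, -43.16 to -17.57. Most of the second component was within wild type and eat-2(ad1116). On it wild type replicates 2 and 3 lay at 41.26 and -33.29, although they also differed in set, and eat-2(ad1116) replicate 1 lay at 24.48. Across the 16253 genes, the later-minus-earlier differences correlated at Pearson's r = 0.7 between dis-3(L75Q) and eat-2(ad1116). The value was 0.52 between wild type and dis-3(L75Q) and 0.47 between wild type and eat-2(ad1116) (Spearman's rho 0.7, 0.45 and 0.46). No 2 genotypes share a library. The single library was a later one in dis-3(L75Q) and in eat-2(ad1116) and the earlier one in wild type. Genes are not independent replicates and the sets were chosen from the same libraries, so these values are descriptions.

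A gene was counted as higher or lower when its mean difference was at least 2-fold and, in each of the 3 genotypes, every later library was above, or below, every earlier one. By this rule 799 of 16253 genes (4.92%) were higher and 615 (3.78%) were lower in the later set. The 2 groups of genes differed between genotypes in opposite ways. Over the 799 higher genes the median difference was 1.01 in wild type, 1.28 in the dis-3(L75Q) mutant and 2.2 in the eat-2(ad1116) mutant, which had the largest of the 3 values for 706 of them. Over the 615 lower genes the medians were -1.93, -1.51 and -1.26, and wild type had the largest difference for 345 of them, dis-3(L75Q) for 152 and eat-2(ad1116) for 118. The count of higher genes depended on single libraries: it was 1475 without wild type replicate 2 and 605 without eat-2(ad1116) replicate 1, in both cases over 2 genotypes instead of 3. Of the 799 genes, 790 were among the 1475, and 504 were among the 605.

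Furrow collagens, which form the circumferential furrows of the cuticle, were lower in the later set for 6 of 6 genes, with a median of -2.73. The median was -3.42 in wild type, -3.04 in the dis-3(L75Q) mutant and -1.7 in the eat-2(ad1116) mutant. The median over all 16253 genes was -0.05. The 6 collagens were close to each other, with mean differences from -2.88 for dpy-7 to -2.63 for dpy-8 and dpy-10. dpy-2, dpy-3 and dpy-9 had -2.78 ± 0.81, -2.68 ± 0.92 and -2.8 ± 0.71. Summed over the 6 genes, the level was 45.4 to 382 CPM in the later set and 610 to 1410 CPM in the earlier set, so the sets did not overlap even across genotypes.

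Of 22 tested apical matrix genes of 24 listed, 14 were lower (63.6%) and none higher, against 3.78% and 4.92% of all genes (median -2.11). They encode the transient precuticle that shapes the epidermal surface while a new cuticle is laid down. Besides fbn-1, sym-1, a leucine-rich repeat protein, had -2.89 ± 0.6, and the lipocalin lpr-6 had -2.88 ± 0.75. lpr-6 had 3.59, 37.7 and 2.7 CPM in wild type, 110, 81.9 and 11.9 CPM in dis-3(L75Q) and 25.4, 113 and 103 CPM in eat-2(ad1116). The later libraries were the low ones in each genotype, and the later eat-2(ad1116) library was the highest of them. The zona pellucida domain genes noah-1 and noah-2 had -2.69 ± 0.79 and -2.58 ± 0.76. The 8 genes that were not counted lay between -0.41 and 0.62. noah-1, noah-2 and the range of the uncounted genes were picked after their values were seen.

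**Figure D2:**
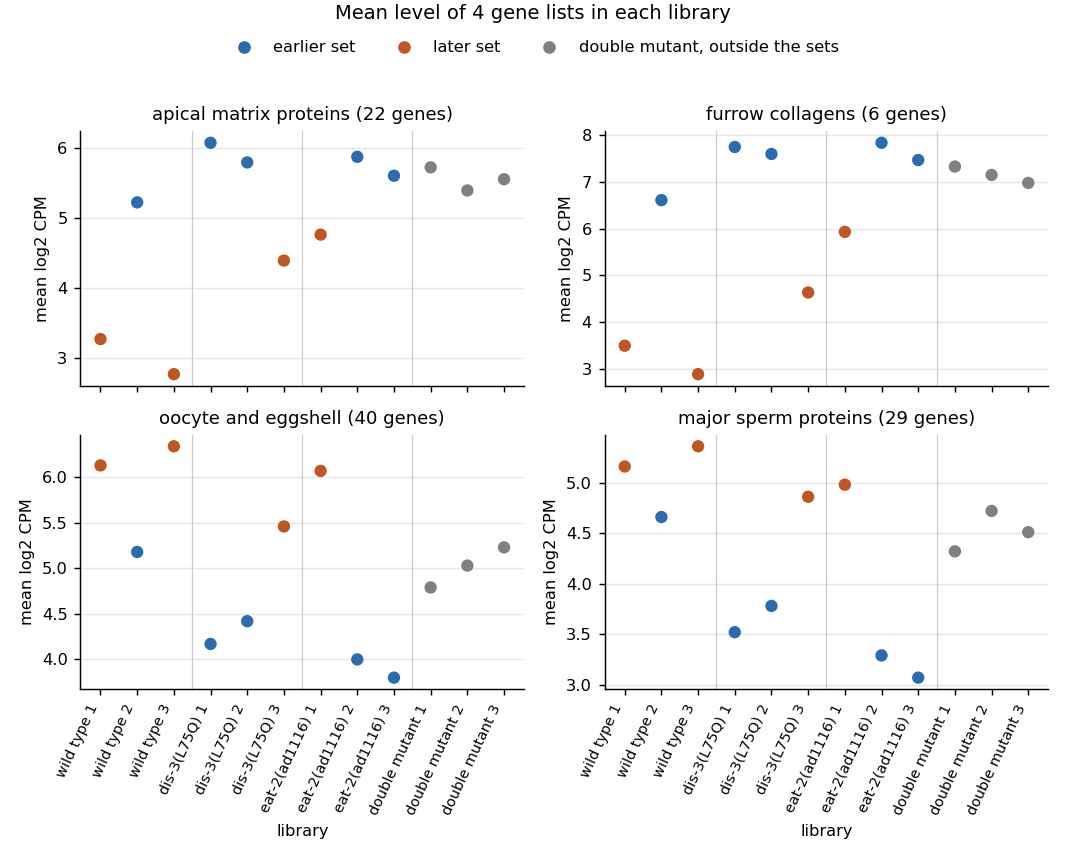
Mean log2 CPM over the tested genes of 4 lists in each of the 12 libraries; each point is 1 library, coloured by set. Apical matrix and furrow collagen genes are low in the later set, oocyte and major sperm protein genes are high there, and the double mutant lies nearer to the earlier set for the 2 cuticle lists.

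Of 17 molting proteases and their inhibitors (median only -0.18), 4 were lower (23.5%) and none was higher, against 3.78% and 4.92% of all genes. Next to mlt-11 these included mlt-9 at -1.64 ± 1.04 and nas-37, an astacin metalloprotease that acts when the old cuticle is shed, at -1.45 ± 0.59. nas-37 had 44.9, 153 and 41.2 CPM in wild type, 243, 223 and 69.4 CPM in dis-3(L75Q) and 75, 132 and 124 CPM in eat-2(ad1116). The other 13 genes ranged from -1 for mlt-8 to 0.7 for mlt-7, which encodes a cuticle peroxidase, so the list was not uniform. These end members were picked after their values were seen.

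Among 24 regulators of molt timing and of the larval-to-adult switch, 7 were lower (29.2%) and none was higher (median -0.66). The shares over all genes were 3.78% and 4.92%. lin-42, the Period homolog whose transcript oscillates with the molting cycle, had 3.3, 10.1 and 0.614 CPM in wild type. It had 21.4, 13.4 and 6.72 CPM in dis-3(L75Q) and 5.27, 13.5 and 12.5 CPM in eat-2(ad1116). The low libraries were again the later ones, with a mean difference of -1.79 ± 0.83. The transcription factor gene myrf-1, needed for molting, had -1.7 ± 0.3, and mlt-4, an ankyrin repeat gene, had -1.53 ± 0.22. lin-29, the zinc finger gene at the end of the heterochronic pathway that starts the adult epidermal program, had -1.25 ± 0.21, from 2.42 to 3.64 CPM in the later set and from 5.43 to 10.1 CPM in the earlier set.

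The 12 lower genes with the largest differences were taken among genes with a gene-class name and at least 5 CPM, at most 2 per class. Of the 615 lower genes 314 had no such name and were not ranked. Among the 12, fbn-1, sym-1, lpr-6 and dpy-7 are described above. The 12 were led by col-176, a cuticle collagen, at -3.39 ± 0.37, with 4.03, 32 and 3.53 CPM in wild type, 264, 248 and 18.4 CPM in dis-3(L75Q) and 17.1, 179 and 161 CPM in eat-2(ad1116). Its later libraries lay at 3.53 to 18.4 CPM, all below the lowest earlier one at 32 CPM. The cadherin genes cdh-7 and cdh-10 had -3.03 ± 0.71 and -2.86 ± 0.49. The hedgehog-related gene wrt-10 had -2.95 ± 0.78 and the patched-related gene ptr-10 had -2.85 ± 0.71. The bZIP transcription factor gene atf-8 had -2.96 ± 0.74, the UDP-glucuronosyltransferase gene ugt-57 had -2.94 ± 0.61, and the mucin-like gene dpy-6 had -2.86 ± 0.79. dpy-6 differed least in wild type (-2.02) and most in dis-3(L75Q) (-3.6).

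The hedgehog-related and patched-related genes, large nematode families expressed mostly in epithelia, were lower for 16 of 69 tested (23.2%) and higher for 3 (4.35%). Over all genes 3.78% were lower and 4.92% higher, so the higher count was near that share. The list median was -0.48. Here too the median was farther from 0 in wild type (-0.95) than in dis-3(L75Q) (-0.28) and eat-2(ad1116) (-0.06). Beside wrt-10 and ptr-10, wrt-2 had -2.4 ± 1.07.

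Both epidermal fusogens, which join cells of the epidermis, were lower in the later set. aff-1, a fusogen needed for the seam cells to fuse at the last molt, had 2.14, 8.44 and 2.06 CPM in wild type, 18, 19.7 and 5.57 CPM in dis-3(L75Q) and 7.59, 28.3 and 26.7 CPM in eat-2(ad1116). eff-1, the other epidermal fusogen, had 9.22, 21.4 and 8.53 CPM, then 35, 29 and 13.2 CPM, then 15.5, 37.1 and 35.5 CPM in the same libraries. Both were low in every later library, with differences of -1.86 ± 0.12 and -1.25 ± 0.02. The cadherin gene cdh-3, expressed in seam, vulva and the utse cell, had -1.49 ± 0.12. These 3 genes differed by like amounts in the 3 genotypes, but che-14, another epidermal gene, did not, with -2.2 in wild type, -0.74 and -0.5 in the single mutants and a mean of -1.15 ± 0.92. Of 21 tested epidermis and seam genes 4 were lower (19%) and none was higher. Of 22 tested vulva and uterus genes 3 were lower (13.6%) and none was higher. Over all genes 3.78% were lower and 4.92% higher, so the absence of higher genes in lists this short says little.

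The 14 other named cuticle collagens, which include genes of struts, annuli and body shape, were lower for 8 genes (57.1%) and higher for none (median -1.08). The shares over all genes were 3.78% and 4.92%. The medians of the 14 collagens were -2.2 in wild type, -0.8 in the dis-3(L75Q) mutant and -0.3 in the eat-2(ad1116) mutant. bli-1, a collagen of the struts of the adult cuticle, had 39.4, 273 and 21.3 CPM in wild type, 468, 345 and 114 CPM in dis-3(L75Q) and 111, 221 and 171 CPM in eat-2(ad1116). bli-2, of the same struts, had 90.6, 467 and 40.4 CPM, then 619, 561 and 194 CPM, then 211, 322 and 286 CPM. In wild type bli-1 differed by -3.23 and bli-2 by -2.95, against -0.81 and -0.53 in eat-2(ad1116). In dis-3(L75Q) they differed by -1.82 and -1.6. Beside the furrow collagen medians, these values were close in wild type and nearer to 0 in both single mutants.

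Collagens linked to the adult cuticle showed 2 patterns. col-19, an adult-specific collagen used as a marker of adult epidermis, had 1760, 684 and 2100 CPM in wild type, 274, 418 and 949 CPM in dis-3(L75Q) and 872, 61.1 and 72.3 CPM in eat-2(ad1116). It was higher in the later set in each genotype, by 2.23 ± 1.28, and col-7 (2.11 ± 1.26) and col-62 (2.1 ± 1.22) followed it closely. In eat-2(ad1116) the 3 genes differed by 3.51 to 3.71, and in the other 2 genotypes by 1.24 to 1.53.

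The other 4 collagens of that list, col-38, col-49, col-63 and col-138, did not take 1 direction. col-63 had 694, 1380 and 302 CPM in wild type, 1190, 1010 and 1350 CPM in dis-3(L75Q) and 824, 371 and 341 CPM in eat-2(ad1116). col-49 had 517, 860 and 266 CPM in wild type, 719, 623 and 893 CPM in dis-3(L75Q) and 497, 232 and 192 CPM in eat-2(ad1116). In wild type the later libraries were the low ones (-1.6 and -1.21), in dis-3(L75Q) the later library was slightly the highest (0.3 and 0.41), and in eat-2(ad1116) the later library was the high one (1.21 and 1.23). For col-38 the later dis-3(L75Q) library lay between the earlier ones. col-38 and col-138 had the same signs, with -1.32 and -1.21 in wild type, 0.03 and 0.21 in the dis-3(L75Q) mutant, and 0.76 and 1.14 in the eat-2(ad1116) mutant. All 4 were lowest in eat-2(ad1116) replicates 2 and 3 and in wild type replicate 3. The levels did not follow the score: dis-3(L75Q) replicate 1, which had the highest score, was among the higher libraries for each of the 4 genes. Their double mutant levels, 956 to 1060 CPM for col-63 and 544 to 597 CPM for col-49, lay between the extremes. These genes have similar sequences, and reads that fit several collagens could be shared between them.

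**Figure D3:**
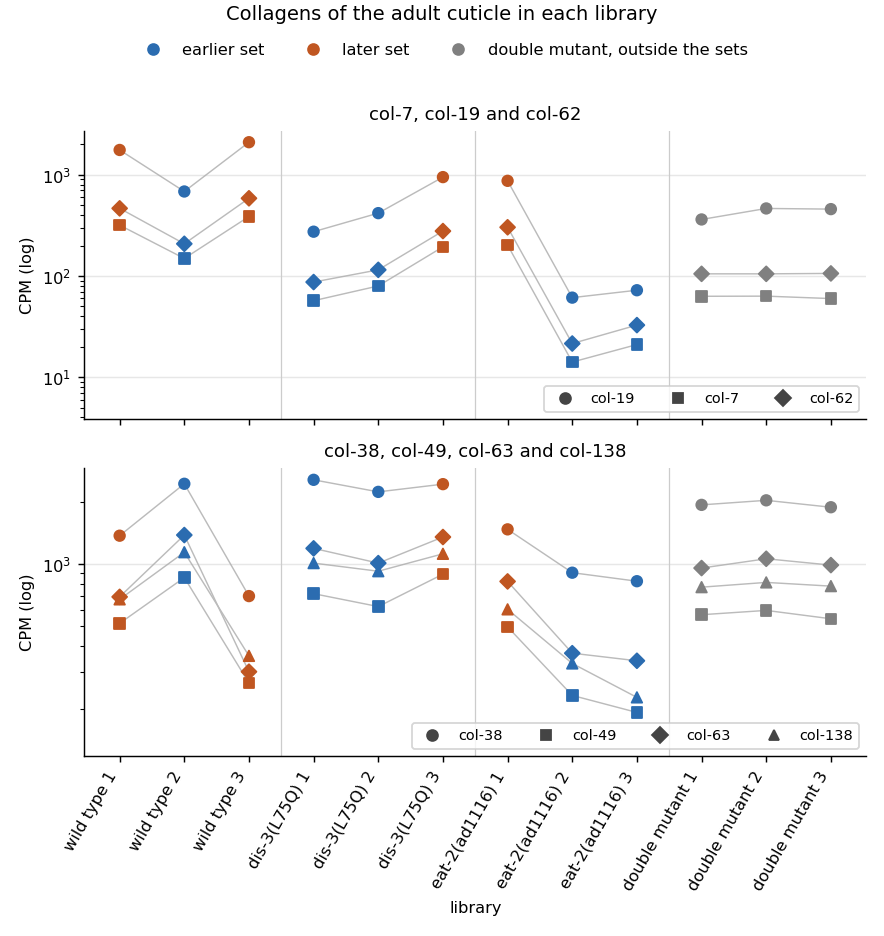
CPM on a log axis of 7 collagens of the adult cuticle in each of the 12 libraries; each point is 1 gene in 1 library, coloured by set, and grey lines join the libraries of a genotype. col-7, col-19 and col-62 are high in the later libraries of each genotype, whereas col-38, col-49, col-63 and col-138 are low in the later wild-type libraries and high in the later eat-2(ad1116) library.

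Over the whole genome 32 genes (0.197%) were at least 2-fold lower in the later wild-type libraries and at least 2-fold higher in the later eat-2(ad1116) library, with no overlap in either, and 26 genes (0.16%) had the reverse pattern. The difference between genotypes was not tested. Of 131 tested col genes out of 156, 4 were in the first group and 3 in the second. By the rule over all genotypes, 34 col genes were higher (26%) and 8 were lower (6.11%), with a median of 0.3. Summed over the 131 genes, collagen transcripts made up 4.16% of the counts of wild type replicate 2 against 5.64% and 6.05% of replicates 1 and 3. They made up 3%, 3.28% and 5.3% of the counts of the dis-3(L75Q) libraries and 4.22%, 2.37% and 2.16% of those of the eat-2(ad1116) libraries, so the share was higher in the later libraries of each genotype while furrow collagens were lower. Among higher genes with a gene-class name and at least 5 CPM, col-95 (3.14 ± 1.92) and col-143 (2.75 ± 2.14) led. This leaves aside an entry of mpst-6 that exchanged reads with another entry. Of the 799 higher genes 468 had no gene-class name and were not ranked. col-143 had 370, 135 and 510 CPM in wild type, 66.3, 129 and 235 CPM in dis-3(L75Q) and 117, 3.39 and 2.83 CPM in eat-2(ad1116).

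All 6 yolk protein genes were higher in the later set, with a median of 2.29 (1.36 in wild type, 1.9 in the dis-3(L75Q) mutant and 3.59 in the eat-2(ad1116) mutant). vit-6, on chromosome IV, had 2060, 856 and 2070 CPM in wild type, 388, 366 and 1330 CPM in dis-3(L75Q) and 730, 79.4 and 60.6 CPM in eat-2(ad1116). The mean difference was 2.16 ± 1.1 for vit-6, 2.19 ± 1.02 for vit-2 and 2.43 ± 1.29 for vit-4. vit-1, which is close in sequence to vit-2, differed from the rest in eat-2(ad1116), where its difference was 1.71 against 3.27 to 3.91 for the other 5. Reads can be exchanged between vit-1 and vit-2 and between vit-3, vit-4 and vit-5. Summed yolk transcripts were 1360 to 5800 CPM in the later set and 114 to 2230 CPM in the earlier set, which overlap because wild type replicate 2 exceeded eat-2(ad1116) replicate 1.

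The list of yolk gene regulators did not share this pattern. Of 8 genes, rme-2, the oocyte receptor that takes up yolk, was higher at 1.59 ± 0.72, with 611, 296 and 683 CPM in wild type, 128, 181 and 360 CPM in dis-3(L75Q) and 543, 111 and 93.5 CPM in eat-2(ad1116). Its later libraries were the high ones in each genotype. rme-2 is a receptor gene that also belongs to the oocyte and eggshell list. None of the other genes of the regulator list was higher. The transcription factor lin-29 was lower, as given above, and so was mab-3, a doublesex-related gene that represses vitellogenin genes in males, at -1.91 ± 0.67 with a mean of 0.851 CPM. The homeobox gene unc-62, a regulator of vitellogenin genes in the adult intestine, had -0.42 ± 0.42 and was not counted. The intestine list did not share the sign of the yolk genes: 21 of its 24 genes were negative, with a median of -0.32. Its counts, 1 higher and none lower, were near the shares over all genes (4.92% higher and 3.78% lower). The 1 higher gene, sip-1, encodes a small heat shock protein (1.64 ± 0.98) that is also known from oocytes and embryos.

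Of 40 oocyte and eggshell genes 35 were higher and none was lower, and all 40 had a positive mean difference, with a median of 1.45. meg-1, a component of embryonic P granules, had 33.3, 12.9 and 39.4 CPM in wild type, 3.69, 5.87 and 14.9 CPM in dis-3(L75Q) and 34, 2.73 and 1.77 CPM in eat-2(ad1116). nos-2, a Nanos gene whose maternal RNA is stored in oocytes, had 34, 14.3 and 40.2 CPM, then 4.1, 7.14 and 16.7 CPM, then 34.2, 2.83 and 3.32 CPM. In both genes the later eat-2(ad1116) library was at the level of the later wild-type libraries, unlike for vit-3, where it had 58.9 against 736 and 732 CPM. Their differences were 2.35 ± 1.35 and 2.15 ± 1.14. meg-4, a relative of meg-1, had 2.05 ± 0.82. Eggshell genes were among the 35: chs-1, the chitin synthase of the eggshell, had 1.34 ± 0.66, and cbd-1, a chitin-binding eggshell protein, had 1.23 ± 0.44, both picked after their values were seen. The cyclin B genes cyb-3 (1.08 ± 0.28), cyb-2.1 (1.41 ± 0.64) and cyb-2.2 (1.47 ± 0.66) were the higher members among 32 genes of cell division and DNA replication, whose median was 0.44.

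Lists of earlier germline steps differed little. None of the 32 genes of meiotic pairing and recombination was counted in either direction, nor any of the 23 genes of germline stem cells and P granules. Over all genes only 4.92% were higher and 3.78% lower, so counts of 0 in lists this short say little. The medians of the 2 lists were 0.39 and 0.38 with a positive sign for every member. The largest values in these lists were 0.67 ± 0.21 for dsb-1, needed for meiotic double-strand breaks, and 0.85 ± 0.39 for the P granule helicase glh-2.

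Transcripts of the major sperm proteins were higher in the later set as well, although spermatogenesis precedes oogenesis in hermaphrodites. Of 29 tested major sperm protein genes out of 31, which encode the protein of sperm motility that also signals to oocytes, 28 were higher, with a median of 1.25 (0.62, 1.23 and 1.87 by genotype). Summed over the 29 genes, the level was 1470, 1050 and 1720 CPM in wild type, 485, 579 and 1220 CPM in dis-3(L75Q) and 1340, 410 and 358 CPM in eat-2(ad1116). The later libraries of each genotype were the high ones, but wild type replicate 2 was close to the later dis-3(L75Q) library. These genes are nearly identical, so single members are uncertain and the sum is the safer value. In wild type none of the 29 was at least 2-fold higher without overlap of the sets. In dis-3(L75Q) and in eat-2(ad1116) 28 were in each. Of all 16253 genes, 691 were at least 2-fold higher without overlap of the sets for wild type, 1200 for dis-3(L75Q) and 1837 for eat-2(ad1116). The wild-type count of 0 among 29 is therefore little apart from the share over all genes.

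Among other sperm genes, 6 of 9 nspd genes (66.7%) and 9 of 35 structure and fertility genes (25.7%) were higher (medians 1.09 and 0.59). None was lower. Over all genes 4.92% were higher and 3.78% lower. For the 35 structure and fertility genes the median was -0.04 in wild type, against 0.71 and 1.19 in the single mutants. In wild type 1 of them was at least 2-fold higher without overlap of the sets, against 13 in dis-3(L75Q) and 19 in eat-2(ad1116). Beside the counts of each single genotype over all genes given above, 1 of 35 says little, while 13 and 19 of 35 were larger shares than those. msd-2, which encodes a protein with a major sperm protein domain, had 10.9, 3.35 and 14.7 CPM in wild type, 2, 2.97 and 10.6 CPM in dis-3(L75Q) and 8.6, 1.38 and 3.04 CPM in eat-2(ad1116), a difference of 2.01 ± 0.1. By contrast fog-3, the last gene of the pathway that commits germ cells to sperm, had 3.08, 7.57 and 2.06 CPM in wild type, 14.9, 15.5 and 8.75 CPM in dis-3(L75Q) and 2.28, 14.2 and 13.1 CPM in eat-2(ad1116). It was low in every later library, at -1.63 ± 0.88. Of 13 commitment and meiotic factor genes of spermatogenesis, fog-3 was the only one counted (7.69% lower and none higher). That count is little apart from the shares over all genes.

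**Figure D4:**
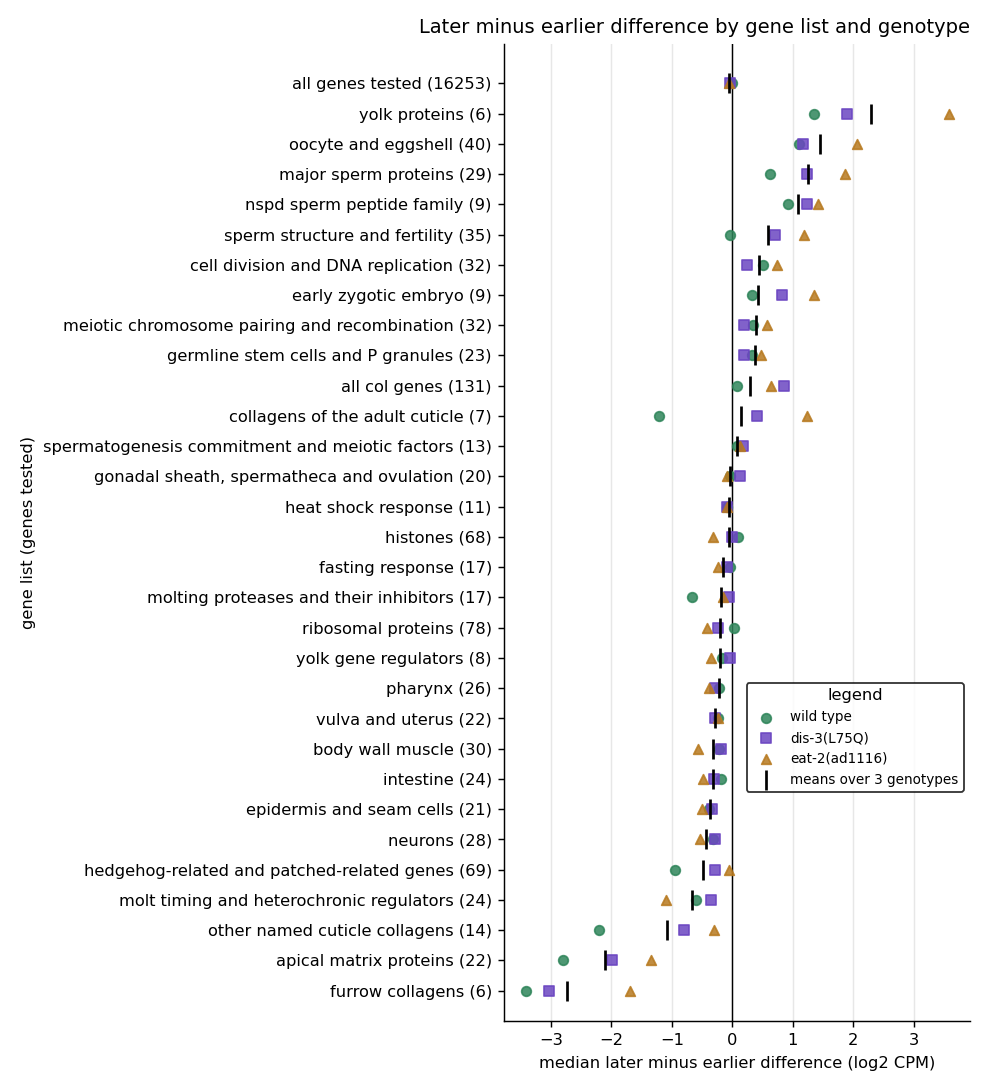
Median later-minus-earlier difference (log2 CPM) of each gene list, with the number of genes tested in brackets, for wild type, dis-3(L75Q) and eat-2(ad1116); the bar is the median of the genes' means over the 3 genotypes. For furrow collagens and apical matrix genes wild type lies farthest from 0, and for yolk, oocyte and major sperm protein genes eat-2(ad1116) does.

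The remaining higher genes with the largest differences, ranked within the same limits as the lower ones, included genes of the reproductive tract. ule-5 and ule-3, secreted proteins expressed in the uterus, had 2.47 ± 1.56 and 2.29 ± 1.43. ule-3 had 348, 134 and 403 CPM in wild type, 42, 79.3 and 156 CPM in dis-3(L75Q) and 176, 10.1 and 12.9 CPM in eat-2(ad1116). tbh-1, the enzyme that makes octopamine and is found in a pair of neurons and in the gonadal sheath, had 122, 47.3 and 146 CPM, then 14.3, 24.5 and 53.8 CPM, then 55.1, 4.3 and 5.34 CPM, a difference of 2.17 ± 1.16. In both genes the later libraries were the high ones in each genotype. The CDC25 phosphatase gene cdc-25.3 had 2.4 ± 1.38, the trypsin-like protease gene try-1 had 2.35 ± 1.13, and the transthyretin-related gene ttr-42 had 2.2 ± 1.19. Although ule-3, ule-5 and tbh-1 differed in this way, the gonadal sheath, spermatheca and ovulation list had a median of -0.03. None of its 20 genes was counted, which is little apart from the shares over all genes (4.92% higher and 3.78% lower). Innexins of the contact between sheath and germ line had positive values that missed the 2-fold minimum, 0.86 ± 0.53 for inx-22, 0.84 ± 0.3 for inx-14 and 0.7 ± 0.23 for inx-8.

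**Figure D5:**
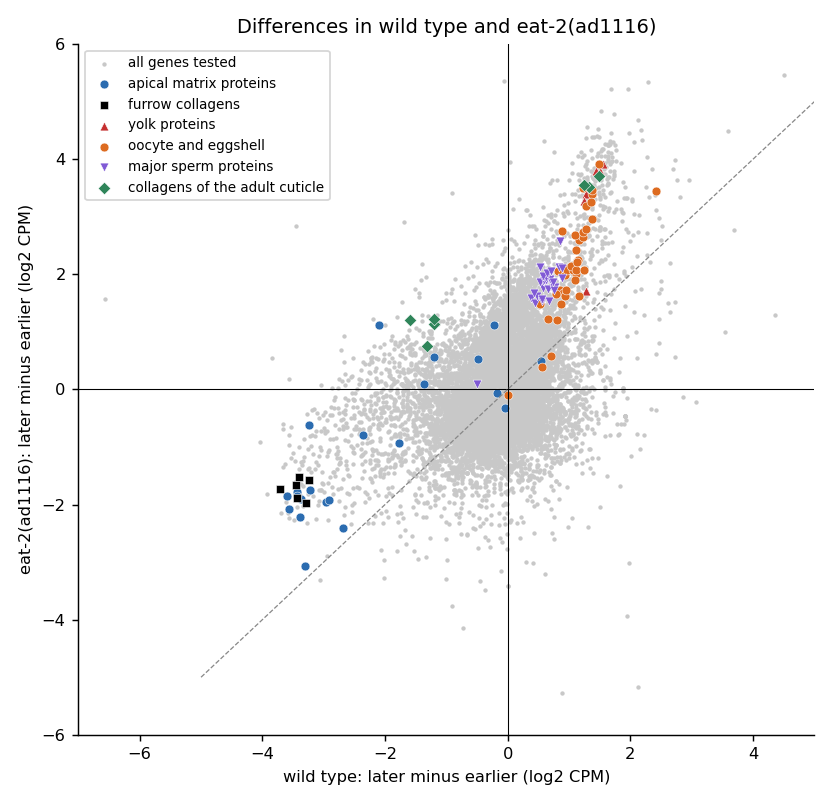
Later-minus-earlier difference (log2 CPM) in wild type on the x axis against that in eat-2(ad1116) on the y axis; each point is 1 gene, 16253 in grey, with 6 lists in colour and a dashed line of equal differences. Most yolk, oocyte and major sperm protein genes lie above the line, furrow collagens lie below 0 on both axes with the larger size in wild type, and 4 collagens of the adult cuticle lie at the upper left.

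Among somatic lists outside the epidermis, body wall muscle (30 genes, median -0.32) and neurons (28 genes, -0.43) had no gene counted, and 29 and 27 of their members had a negative sign. With 4.92% of all genes higher and 3.78% lower, a count of 0 in such short lists says little. Ribosomal protein genes (78 genes, -0.21), the fasting response (17 genes, -0.15) and the heat shock response (11 genes, -0.05) had small medians as well. 1 heat shock entry was lower, 1 of 2 entries of hsp-16.48 (mean 0.552 CPM), named after its value was seen. Of 68 histone entries, which share reads, 1 was higher and 5 were lower (median -0.06, and 0.02 with scaling by library totals). In the pharynx list 4 of 26 genes were higher and 1 was lower (median -0.22). The higher ones included abu-1 (1.33 ± 0.53) and abu-10 (1.19 ± 0.44), which encode glutamine- and asparagine-rich proteins of the pharyngeal cuticle. The lower one was peb-1, a pharyngeal DNA-binding protein gene, at -2.47, named after its value was seen. The pharynx gene myo-1 had -0.76 ± 0.43 and was not counted, and 16 of the 26 genes were negative. Counts within single genotypes took genes at least 2-fold apart without overlap of the sets. By these, wild type had 0 higher and 1 lower, dis-3(L75Q) 8 and 1, and eat-2(ad1116) 3 and 6. Over all 16253 genes the same counts were 691 and 1210, 1200 and 891, and 1837 and 1067. The pharynx median was negative for each genotype, at -0.22, -0.28 and -0.39. Small negative medians stood beside a higher sum of germline, yolk and collagen transcripts in the same libraries, and whether they reflect that was not tested. With scaling by library totals alone the median of all genes was 0.03 instead of -0.05, and the 56.5% of counted genes that were higher became 64%.

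Transcripts of embryos and males are described here beside the labels' stage, without a reference level that could check it. Of 27 genes that the early embryo transcribes, 18 were below the filter, and together these 18 had 4 to 15 counts in each earlier library and 36 to 116 counts in each later library, of at least 31812386 in all. pes-10, one of the first genes transcribed by the embryo, had 15 and 8 counts in the later wild-type libraries, 8 in the later dis-3(L75Q) library and 22 in the later eat-2(ad1116) library. It had 0, 0, 0, 1 and 0 counts in the earlier libraries and 0 in each double mutant library. end-1 had at most 6 counts and med-1 at most 2 in any library. The 18 genes are those that the filter left out, so low counts are part of how they were picked. The sets are called earlier and later here, since the labels give 1 stage, and whether later animals held embryos was not tested. Of the 9 tested genes of the list 4 were higher (44.4%, against 4.92% of all genes) and none was lower. These were pal-1, whose RNA the oocyte also stores, at 1.11 ± 0.29, and tbx-9, vet-1 and vet-2. The last 3 had 2 to 383 counts in each library and were named after their values were seen. The list was not uniform: 4 of the 9 had a negative mean difference, among them sdz-24 at -0.51 ± 0.22. Summed counts of 11 male genes were 94 to 175 in the 9 libraries, with overlapping ranges in the sets.

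The double mutant libraries, which the choice of sets did not use, varied less among themselves than those of the other genotypes in the sums of the 4 lists given here. Their summed furrow collagens were 1000, 889 and 786 CPM, inside the range of the earlier set. Yolk transcripts summed to 498, 438 and 808 CPM, above the earlier eat-2(ad1116) libraries (150 and 114 CPM) and below the later one (1360 CPM). Oocyte and eggshell genes summed to 2690, 3330 and 3590 CPM, above the earlier dis-3(L75Q) and eat-2(ad1116) libraries, which had at most 2190 CPM, and near the earlier wild-type library at 3500 CPM. Major sperm proteins summed to 846, 1100 and 979 CPM, between the earlier and the later libraries of both single mutants. The genotype of these libraries differs from that of both sets, so their position cannot be told apart from an effect of the strain.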

How the data were processed

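Whole-body RNA was sequenced in pairs for 12 libraries. Per the file headers, the authors deposited 1 expected count per gene and library, an RSEM estimate without scaling. STAR 2.7.0e, RSEM 1.3.1, WBcel235 and ce11 are named in the submitters' processing notes. Counting annotation, RNA selection, trimming and use of strand: not given in the sources used here. Overlapping and antisense genes are therefore uncertain. Of 46934 entries, 46924 matched the Ensembl annotation of WBcel235 by identifier, the source of the coordinates (1-based). Between 93.4% and 93.8% of values above 0 were whole, and all were rounded.

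Counts were scaled by TMM over all 12 libraries (edgeR 4.0.16, R 4.3.3), filtered with filterByExpr by genotype, and expressed as CPM and as log2 CPM with a prior count of 2. The value of a gene is the mean of 3 within-genotype differences, with their SD. A gene was counted at a mean of at least 2-fold with no overlap of the sets in any genotype. The steps were tested on simulated data. No 2 libraries of a genotype agreed within sampling noise (chi-square per gene from 15 upwards). The labels name no batch, and RNA quality was not given.

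The rule for named genes took dis-3, eat-2, the 5 markers, and the 12 counted genes with the largest difference in each direction (a gene-class name, at least 5 CPM, at most 2 per class). It also took from each list the 3 members with the largest difference, all yolk, furrow and adult cuticle collagen genes, and the 6 genes with the largest SD over genotypes. The sets, lists and rule were chosen with earlier results of these data known. Alternatives were DESeq2-type size factors (DESeq2 1.42.0), library totals, TMM over 9 libraries, other filters, prior counts and fold minimums, an edgeR estimate, a block for the replicate number, and each library left out. Plots used matplotlib 3.10.9 in Python 3.11.15.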

Additional observations from a re-analysis of the deposited data

Results flagged for a closer look

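Some genes had opposite later-minus-earlier differences in 2 genotypes, each at least 2-fold and without overlap of the sets. None of these differences between genotypes was tested.

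Wild type was lower and eat-2(ad1116) higher for 3 collagens of the adult cuticle. col-49 had -1.21 in wild type and 1.23 in eat-2(ad1116), 2.45 apart on the log2 scale. col-63 had -1.6 and 1.21, which are 2.81 apart. col-138 had -1.21 and 1.14, which are 2.34 apart.

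The gene mpst-6 has 2 entries with the same symbol. For 1 of them the wild-type difference was -6.57, the dis-3(L75Q) difference -7.59 and the eat-2(ad1116) difference 1.57, so that eat-2(ad1116) stood 8.14 above wild type and 9.16 above dis-3(L75Q). The 2 entries exchanged reads. In wild type the first had 0.126, 14.4 and 0.0614 CPM and the second 35.3, 14.4 and 41.9 CPM. Their sum was 35.5, 28.8 and 41.9 CPM in wild type, 10.8, 13 and 23 CPM in dis-3(L75Q) and 27.8, 8.29 and 10.4 CPM in eat-2(ad1116), with no opposite sign. The second entry is formally the higher gene with the largest value, 3.84 ± 4.07, and was left out of the account for that reason.

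The ribosomal RNA entry rrn-3.1 was higher in the later dis-3(L75Q) library (2.39) and lower in the later eat-2(ad1116) library (-2.17), a gap of -4.56. It ranged from 927 to 15200 CPM over the 9 libraries without following the sets.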

How the results depend on the processing

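The number of genes higher in the later set (799) was 429 with a mean of at least 5 CPM, 211 with a 4-fold minimum and 3236 with no minimum, and the number of genes lower in the later set (615) was 350, 137 and 3617. With each library left out, the higher count ran from 605 (without eat-2(ad1116) replicate 1) to 1475 (without wild type replicate 2), and the lower count from 617 to 784. Other scalings, filters and fits kept both counts within 1.5 times. With library totals they were 955 and 538. A block for the replicate number gave 1003 and 646. Replicate 2 was earlier in all 3 genotypes, so the block is partly aligned with the sets.

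The list median of collagens of the adult cuticle, 0.15, had the opposite sign without wild type replicate 1 (-0.01) and without eat-2(ad1116) replicate 1 (-0.39), and with libraries left out it ran from -0.39 to 0.82. The list median of histones, -0.06, was 0.02 with library totals and ran from -0.19 to 0.08 with libraries left out. The cause was not tested. Of 525 list medians under the alternatives 478 kept within the spread of the genotypes, 43 moved and 4 were tallied as sign changes. Of 1954 values of named genes 1944 kept within that spread, 10 moved and 0 were tallied as sign changes. Sign changes were tallied only for lists with several counted members and for counted genes. Any other sign change is included in the values that kept or moved. Depth limits genes of few counts, such as pes-10 and hsp-16.48.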
